A study of Homo sapiens with 18 samples.

Results

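A set of 9 axon guidance genes, called members here, was followed in PANC-1 cells, an established line from a pancreatic ductal carcinoma, among the 58302 genes in the expression table. They are 2 netrins (NTN1 and NTN4), 2 netrin receptors (UNC5B and NEO1), 3 secreted semaphorins (SEMA3A, SEMA3C and SEMA3F) and 2 plexins (PLXNA1 and PLXNB2). The genes were chosen by name, with the rise of NTN1 in NAT10-KD cells already seen in these libraries, so their expression differences are given as a description without a test. Control cells (shCtrl) carried a lentiviral shRNA vector labelled as empty, and NAT10-KD cells (shNAT10) carried a lentiviral shRNA vector against NAT10, the enzyme that writes N4-acetylcytidine (ac4C) on RNA. Both groups were derived from the same line, and which NAT10 shRNA was used is not given in the sources used here. RNA-seq had 3 libraries per group, and acRIP-seq, an immunoprecipitation of RNA fragments with an antibody against ac4C (IP), had 3 IP and 3 input libraries per group. The study asked how NAT10 and ac4C bear on the growth of pancreatic cancer along nerves.

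Netrins are secreted proteins related to laminins that steer growing axons and migrating cells. They are read by DCC, neogenin and the UNC5 receptors, of which the last are linked with repulsion. Class 3 semaphorins are secreted cues, mostly repulsive, that bind neuropilins paired with A-type plexins, while B-type plexins mainly read membrane-bound class 4 semaphorins. Both families are also expressed by epithelial tumors, where tumor cells and nerves can exchange these signals.

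The clearest sequence data for these genes are the acRIP peaks in coding exons, and 4 of them are printed because they are single-list peaks on a ligand and a receptor and a pair that touches across the lists. Positions are on GRCh38, sequences are GENCODE v29 transcript sequence read 5′ to 3′ along the sense strand with introns removed, and capitals mark runs of at least 4 consecutive triplets that each begin with C. Such runs were searched on the sense strand only, since it is the RNA that is acetylated. The SEMA3F peak lies at chr3:50186649-50187816 on the plus strand and covers codons 617 to 687 across 2 exons. The first PLXNA1 peak lies at chr3:126988684-126988894 on the plus strand and covers codons 31 to 101. The PLXNB2 pair lies on the minus strand, at chr22:50289125-50289709 in shCtrl cells (codons 292 to 362) and at chr22:50288975-50289529 in NAT10-KD cells (codons 352 to 412).
SEMA3F, shCtrl: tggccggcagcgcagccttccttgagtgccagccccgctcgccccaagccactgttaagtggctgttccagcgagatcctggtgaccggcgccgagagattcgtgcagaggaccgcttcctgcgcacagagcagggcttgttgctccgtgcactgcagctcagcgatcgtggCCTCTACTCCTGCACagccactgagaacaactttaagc
PLXNA1, shCtrl: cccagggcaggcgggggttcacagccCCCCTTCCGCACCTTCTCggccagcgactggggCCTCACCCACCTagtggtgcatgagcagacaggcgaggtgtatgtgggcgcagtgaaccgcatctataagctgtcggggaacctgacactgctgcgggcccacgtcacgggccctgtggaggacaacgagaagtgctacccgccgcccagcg
PLXNB2, shCtrl: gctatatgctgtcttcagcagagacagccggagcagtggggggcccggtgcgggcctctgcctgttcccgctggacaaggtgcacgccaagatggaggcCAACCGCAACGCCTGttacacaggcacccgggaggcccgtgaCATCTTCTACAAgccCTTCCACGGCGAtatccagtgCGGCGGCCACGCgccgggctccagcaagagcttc
PLXNB2, shNAT10: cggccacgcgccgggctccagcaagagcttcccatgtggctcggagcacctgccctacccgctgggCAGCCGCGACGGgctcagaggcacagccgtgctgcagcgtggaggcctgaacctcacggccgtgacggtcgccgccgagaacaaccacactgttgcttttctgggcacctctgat
The last 31 bases of the PLXNB2 peak of shCtrl cells are the first 31 bases of the PLXNB2 peak of NAT10-KD cells. All 4 sequences are rich in C, with 33.8% C in SEMA3F, 33.6% in PLXNA1, and 33.6% and 36.5% in the PLXNB2 pair. Such a run started at 2 positions in the SEMA3F peak, 4 in the PLXNA1 peak, 5 in the PLXNB2 peak of shCtrl cells and 1 in that of NAT10-KD cells. The other searched coding peaks of members are not printed. In shCtrl cells they held 2 and 2 starts on PLXNA1 and 0 on PLXNB2. In NAT10-KD cells those on PLXNB2 held 8, 0 and 7. Their share of C reached down to 27.5%, on PLXNB2 in NAT10-KD cells. For comparison, all listed peaks of 180 to 300 bases that lay unbroken on the longest coding transcript were searched, with introns removed. They lay in coding sequence or UTRs. Of these, 49.2% in the shCtrl list and 48.8% in the shNAT10 list held such a run, and a match does not mark an acetylated base.

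The RNA-seq libraries held 15831719 to 23521761 reads on genes, as recovered from the deposited FPKM values (reads scaled by transcript length and by the total of the library). NAT10 lay at 27.7 to 31.6 FPKM in shCtrl cells and at 7.90 to 8.43 in NAT10-KD cells, or 27.6% of the control mean. All 6 markers of duct epithelium listed for this check passed the expression filter, and their summed level was 2792 to 3753 FPKM in shCtrl cells and 1497 to 1678 in NAT10-KD cells. They did not move together: KRT7, KRT8, KRT18 and KRT19 lay at 0.441 to 0.555 of their control means, EPCAM at 4.63 and CDH1 at 1.25. Of 6 neuronal markers, 3 lay under 0.1 FPKM in all libraries, and their summed level was 10.9 to 11.9 FPKM in shCtrl cells and 15.9 to 16.8 in NAT10-KD cells, with means of 4.81 and 11.2 FPKM for MAP2 against 5.24 and 3.23 for SYP. Of 5 Schwann cell markers, 4 lay under 0.1 FPKM, with SOX10 and S100B at 0 in all libraries, and the fifth, PMP22, had means of 12.1 and 3.39 FPKM, which set the sums of 10.9 to 13.0 and 3.19 to 3.69 FPKM. The sums of 5 fibroblast markers, of which COL1A2, DCN and LUM lay under 0.1 FPKM, were 29.5 to 34.6 and 19.3 to 22.8 FPKM. COL1A1 had means of 31.1 FPKM in shCtrl and 19.2 in NAT10-KD cells, while COL3A1 had 0.776 and 1.96. The part of these shifts in the guidance genes was not tested. Control libraries differed by transcript length, each compared with the mean of the other controls. The log2 difference fell with length across genes in shCtrl 2 (Spearman's rho −0.53) and rose in shCtrl 1 (0.49) and shCtrl 3 (0.32). Since shCtrl 2 is part of the reference for shCtrl 1 and shCtrl 3, these signs are not independent. The SD of the differences was 0.46 in shCtrl 2, 0.41 in shCtrl 1 and 0.29 in shCtrl 3. Compared within their own group, NAT10-KD 1, 2 and 3 had rho of −0.07, −0.20 and 0.20. Their SDs were 0.33, 0.32 and 0.32. The part of shCtrl 2 in the differences between groups was not tested, and values without it are given for the named genes it moved most. Nothing in the labels says that the 3 libraries of a group came from separate cultures, so errors and p-values describe the spread between these libraries.

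The netrins were the members furthest above their control level. NTN1 (chr17:9021542-9244000, plus strand), which encodes netrin-1, was scarce in shCtrl cells at 0.494, 0.456 and 0.471 FPKM, and lay at 2.31, 2.26 and 2.00 FPKM in NAT10-KD cells. Those values rest on 51, 55 and 66 reads against 218, 261 and 211 reads. The 2 groups lay well apart, with the mean 4.62-fold that of shCtrl cells and a log2 difference of 2.00 ± 0.18 (SE), on log2(FPKM + 0.1), which understates the change of a low gene. NTN1 is also the gene whose rise chose this set, and it passed the filter of 1 FPKM in 3 libraries through the NAT10-KD libraries alone. In bulk libraries, more cells with a transcript and more of it per cell cannot be told apart.

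NTN4 (chr12:95657807-95791152, minus strand) encodes netrin-4, a netrin of basement membranes. It lay at 12.8, 11.04 and 12.2 FPKM in shCtrl cells and at 31.2, 31.0 and 31.2 FPKM in NAT10-KD cells. The groups did not overlap, the 3 NAT10-KD libraries were nearly identical, and the log2 difference was 1.37 ± 0.07. On a per-length scale NTN4 was far above NTN1 in both groups, and their order by log2 difference depended on the pseudocount, with 1.11 for NTN1 and 1.31 for NTN4 at a pseudocount of 1.

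The netrin receptors among the members were low and went the other way. UNC5C, a netrin receptor outside the members, lay higher in NAT10-KD cells and is described below. UNC5B (chr10:71212570-71302864, plus strand), a receptor for netrins that can also trigger apoptosis when unbound, lay at 0.413, 0.325 and 0.423 FPKM in shCtrl cells and at 0.157, 0.113 and 0.124 in NAT10-KD cells. These values come from 45 to 68 reads in shCtrl and 15 to 17 reads in NAT10-KD libraries, and the groups did not overlap. NEO1 (chr15:73051710-73305206, plus strand), neogenin, a receptor for netrins and repulsive guidance molecules, lay at 1.12, 0.895 and 0.903 FPKM and at 0.697, 0.701 and 0.709 FPKM. Its groups did not overlap either, although shCtrl 2 and shCtrl 3 were close to the NAT10-KD libraries. Neither receptor passed the filter, and a fit without the filter gave log2 differences of −1.07 ± 0.28 for UNC5B and −0.41 ± 0.21 for NEO1. The pseudocount of 0.1 understates such differences, more so for UNC5B, whose mean in NAT10-KD cells was 0.339 of the control mean. DCC, the classical netrin receptor, was at 0 FPKM in all 6 libraries.

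**Figure D1:**
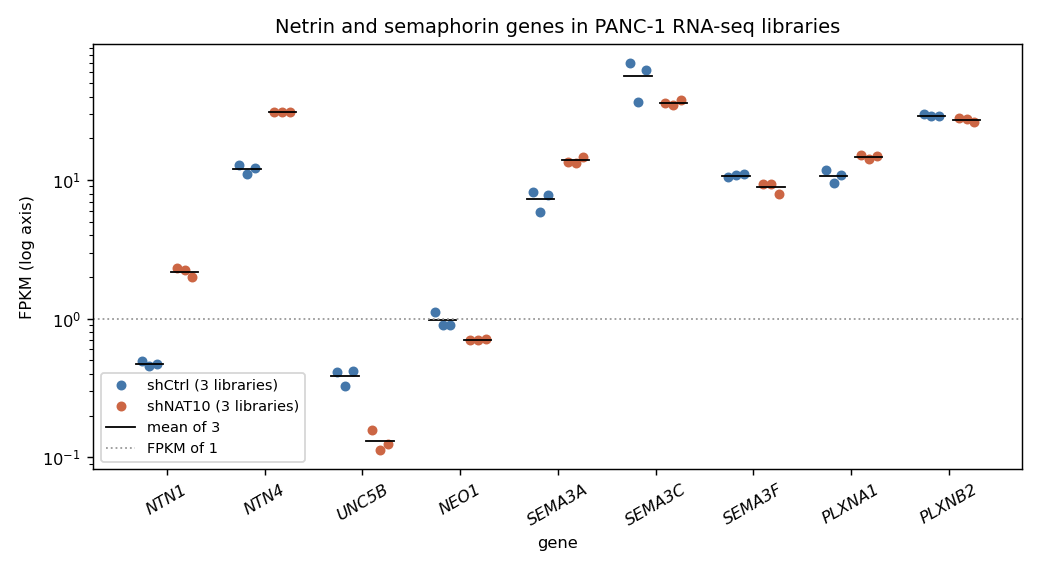
FPKM of the 9 members in each RNA-seq library on a log axis, with shCtrl in blue, NAT10-KD in orange and the mean of 3 libraries as a black line; the dotted line is 1 FPKM. NTN1 had means of 0.474 and 2.19 FPKM on either side of that line, while UNC5B and NEO1 lay lower in NAT10-KD cells and the SEMA3C groups overlapped.

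The semaphorins did not share a direction. SEMA3A (chr7:83955777-84492724, minus strand), which encodes the founding repulsive cue for sensory axons, lay at 8.28, 5.90 and 7.85 FPKM in shCtrl cells and at 13.6, 13.3 and 14.7 FPKM in NAT10-KD cells. Its groups did not overlap, and the log2 difference was 0.92 ± 0.13, or 0.77 without shCtrl 2, the lowest control.

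SEMA3C (chr7:80742538-80922359, minus strand), a semaphorin linked with cell migration and growth in several carcinomas, had the highest level of the members in both groups. It lay at 69.7, 36.8 and 62.2 FPKM in shCtrl cells and at 36.1, 34.6 and 37.9 FPKM in NAT10-KD cells. The groups overlapped, because shCtrl 2 lay among the NAT10-KD libraries while the other controls were well above them. The log2 difference of −0.58 ± 0.22 became −0.86 without shCtrl 2 and −0.40 without shCtrl 1, so the value depends on which control is left out.

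SEMA3F (chr3:50155045-50189075, plus strand), whose product binds neuropilin-2 and has been described as a tumor suppressor, lay at 10.5, 10.9 and 11.02 FPKM in shCtrl cells and at 9.34, 9.31 and 7.91 FPKM in NAT10-KD cells. The groups did not overlap, with the lowest value in NAT10-KD 3, and the log2 difference was small at −0.29 ± 0.09. Of its exon bases, 2.28% are shared with SEMA3F-AS1 on the other strand, and the strand setting of the counting is not given in the sources used here. The exons of the other members share no bases with another gene.

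PLXNA1 (chr3:126988594-127037392, plus strand) encodes a plexin that carries signals of class 3 semaphorins. It lay at 11.9, 9.54 and 10.8 FPKM in shCtrl cells and at 15.2, 14.1 and 15.0 FPKM in NAT10-KD cells. Every NAT10-KD library was above every control, with a log2 difference of 0.46 ± 0.09, or 0.38 without shCtrl 2.

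PLXNB2 (chr22:50274979-50307627, minus strand), a receptor for class 4 semaphorins, lay at 29.8, 28.9 and 28.96 FPKM in shCtrl cells and at 28.1, 27.7 and 26.2 FPKM in NAT10-KD cells. The groups did not overlap but lay next to each other, with a log2 difference of −0.10 ± 0.06. The sign depends on the scale, since TPM (the same values rescaled to one total per library) gave 0.01. The TPM scale moved the median log2 difference of all tested genes from −0.01 to 0.10, a shift of 0.11, and moved the 7 members that passed the filter upwards.

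**Figure D2:**
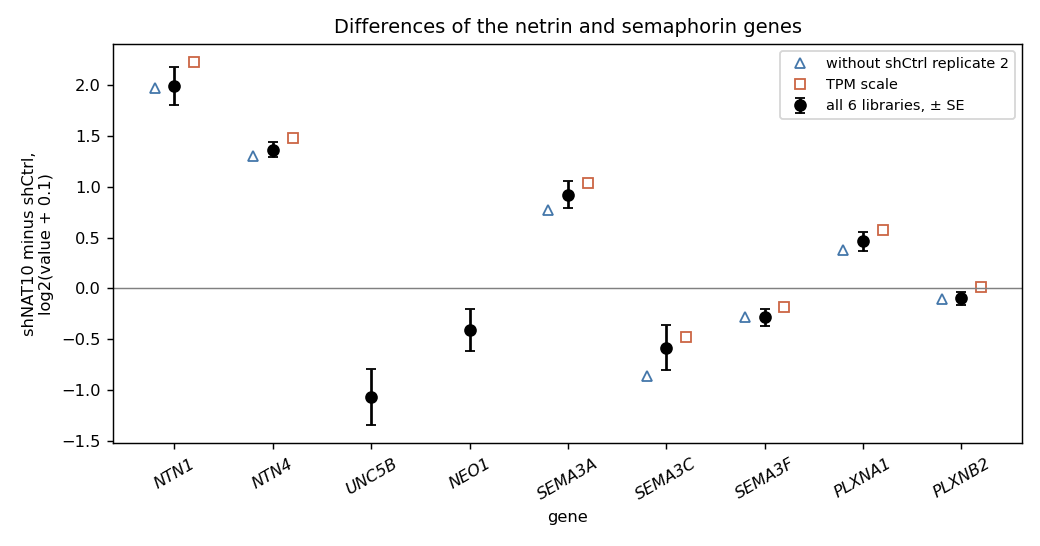
Log2 differences (NAT10-KD minus shCtrl) of the 9 members with SE as black points; blue triangles leave out shCtrl 2 and orange squares use TPM in place of FPKM, neither computed for the 2 genes under the filter. NTN1 at 2.00 and NTN4 at 1.37 lie furthest above 0, SEMA3C moves most without shCtrl 2, and PLXNB2 crosses 0 on the TPM scale.

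In shCtrl cells the order of the mean levels was SEMA3C (56.2 FPKM), PLXNB2 (29.2), NTN4 (12.01), SEMA3F (10.8), PLXNA1 (10.7), SEMA3A (7.34), NEO1 (0.974), NTN1 (0.474) and UNC5B (0.387). Among neighbours in that order, SEMA3F and PLXNA1 overlapped between libraries and the other pairs did not. In NAT10-KD cells NTN4 (31.1 FPKM) stood above PLXNB2 (27.3), PLXNA1 (14.8) and SEMA3A (13.9) above SEMA3F (8.85), and NTN1 (2.19) above NEO1 (0.702). PLXNA1 and SEMA3A were then the neighbours that overlapped.

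In all, 4 members lay above shCtrl cells in every NAT10-KD library, 4 lay below in every one and 1 overlapped. Over all tested genes, 27.9% lay above and 28.6% below without overlap. UNC5B and NEO1, which lay below, did not pass the filter and are not among the tested genes. Since the contrast was in view when these genes were listed, nothing is read from these counts. The genes whose pattern over the 6 libraries lay nearest to that of NTN1, by Euclidean distance of gene-centred log2(FPKM + 0.1) among 12981 genes, were PRMT6 (distance 0.15), KIF1C (0.21) and TPM4 (0.23). PRMT6 went from 2.63 to 3.04 FPKM in shCtrl cells to 11.1 to 11.95 FPKM in NAT10-KD cells.

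The acRIP lists held 17 peaks on members in shCtrl cells, of 16892 in the list, and 15 in NAT10-KD cells, of 15813. Each list pools the 3 IP libraries of its group, so the replicates cannot be compared and no test of a difference was possible. A peak was listed in shCtrl cells for 5 of the 7 members that passed the expression filter, beside 49.6% of all tested genes, and in NAT10-KD cells for 3 of 7, beside 47.7%. The fold enrichment of IP over input is scaled within each list, whose medians were 49.3 in shCtrl and 45.2 in NAT10-KD cells. On the members the medians were 36.0 and 27.3.

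The plexins carried most of the peaks. They also have the longest coding sequences of the members, at 5688 bases for PLXNA1 and 5514 for PLXNB2, against 1812 to 4383 for the others. By whole transcript, PLXNA1 was longest at 9066 bases. PLXNB2, at 6383 bases, was shorter than SEMA3A (8225), NEO1 (7342) and UNC5B (6841). The part of length or RNA level in the number of peaks was not tested. PLXNA1 had 6 in shCtrl and 4 in NAT10-KD cells, and PLXNB2 had 6 and 9. The strongest PLXNA1 peak in shCtrl cells, printed above near the start of the coding sequence, had a fold enrichment of 253 and no counterpart in NAT10-KD cells. In NAT10-KD cells the strongest PLXNA1 peak had 66.4 and lay towards the end of the coding sequence, where it shared 91 bases with a shCtrl peak of 24.4.

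On PLXNB2, 3 shCtrl peaks shared bases with NAT10-KD peaks. The printed pair shared 31 bases, with fold enrichments of 36.0 in shCtrl and 3.38 in NAT10-KD cells. A pair in the 3′ UTR shared 271 bases at 79.6 and 27.3, and a pair at chr22:50282255-50282435 shared 181 bases at 36.0 and 355. The direction of the listed enrichment thus differed between these pairs, and no difference was tested. The printed peaks are 211 and 181 bases long, so most of each lies outside the shared 31 bases. Of the site at 36.0 and 355, 59 bases lie on the longest coding transcript and the rest on none of its exons.

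The netrin and semaphorin transcripts held few peaks, and none of these shared a base between the lists. NTN1 had 1 peak in shCtrl cells, in the 3′ UTR at a fold enrichment of 144, and none in NAT10-KD cells, where its RNA was higher. NTN4 had none in shCtrl cells and 1 in NAT10-KD cells, in the 3′ UTR at 24.9. SEMA3F had 1 peak in shCtrl cells at 322, in the coding sequence, and SEMA3C had 1 at 10 in the 3′ UTR, both without a NAT10-KD peak. SEMA3A and NEO1 had no peak in either list.

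UNC5B had 2 peaks in shCtrl cells, one of 1050 across the end of the coding sequence and one of 562 in the 3′ UTR, and 1 of 153 in the 3′ UTR in NAT10-KD cells. The first was higher than 91.8% of the shCtrl list, on a gene read by 45 to 68 reads in shCtrl RNA-seq libraries. The reads behind a peak are not in the lists, so the counting error of these enrichments is unknown. A peak that is listed in 1 group only is not shown to differ between the groups.

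The other genes of the guidance pathways were examined with a list set by family membership, which holds 75 genes outside the members. Of these, 44 passed the filter and were tested with limma over 12982 genes. In NAT10-KD cells 12 rose and 9 fell at an adjusted p under 0.05, or 27.3% and 20.5% of those tested, beside 20.8% and 21.2% of all genes. Of the 12, 11 also reached 1 FPKM in a control library, UNC5C being the exception. On the TPM scale the counts were 13 and 6, and among all genes 3355 rose and 2075 fell, against 2699 and 2751 on the FPKM scale. The median log2 difference of the list was −0.01, as was that of all tested genes. Past a log2 difference of 1, 2 rose, UNC5C among them, and 3 fell, or 4.55% and 6.82%, beside 2.91% and 3.57%.

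Of the 10 other netrins and netrin receptors, 8 were under the filter. UNC5C, a repulsive netrin receptor related to UNC5B, lay at 0.946, 0.495 and 0.629 FPKM in shCtrl cells and at 1.42, 1.57 and 1.52 FPKM in NAT10-KD cells, a log2 difference of 1.06 ± 0.26. Like NTN1 it passed the filter through the NAT10-KD libraries alone, so it had to differ, and its adjusted p of 0.0153 (limma) is not read as support. That call was lost without NAT10-KD 2 (adjusted p = 0.0585) or NAT10-KD 3 (adjusted p = 0.0576), its adjusted p ran from 0.00166 to 0.0585 over all alternatives, and the log2 difference was 0.88 without shCtrl 2. NTNG2, a membrane-anchored netrin-G, fell by 0.41 ± 0.13 on the log2 scale (adjusted p = 0.0393), and its call was lost without any 1 of 5 libraries, shCtrl 2 being the exception, with adjusted p up to 0.120, and from 0.00432 to 0.163 over all alternatives. The co-receptor ligand RGMB, which binds neogenin, rose by 0.45 ± 0.08 (adjusted p = 0.00542), and the other 2 repulsive guidance genes were under the filter.

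Among the 17 other semaphorins 9 were tested, of which 2 rose, 2 fell and 5 were not called. SEMA6C, a membrane-bound semaphorin, lay at 2.10, 2.33 and 2.05 FPKM in shCtrl cells and at 0.804, 1.02 and 0.570 FPKM in NAT10-KD cells, and fell by 1.36 ± 0.22 on the log2 scale (adjusted p = 0.00326). It passed the filter mainly through shCtrl cells, with 3 shCtrl libraries and 1 NAT10-KD library at 1 FPKM or more. SEMA4F lay at 9.24, 7.37 and 8.49 FPKM and at 3.996, 4.03 and 4.25 FPKM, and fell by 1.01 ± 0.10 (adjusted p = 0.000461). Neither gene's groups overlapped. SEMA3E, which signals through PLXND1, rose by 0.72 ± 0.17 (adjusted p = 0.0154), with the call lost without NAT10-KD 1 (0.0593) or NAT10-KD 2 (0.0604) and a lowest adjusted p of 0.00916 over the alternatives. SEMA4D, a ligand of B-type plexins, rose by 0.66 ± 0.12 (adjusted p = 0.00494).

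Of the 9 other plexins and neuropilins 6 were tested, with 1 higher, 1 lower and 4 not called. NRP2, the co-receptor for SEMA3F and SEMA3C, rose from 1.32, 0.986 and 1.19 FPKM to 2.30, 1.78 and 1.95 FPKM, by 0.74 ± 0.18 (adjusted p = 0.0142, or 0.0602 without NAT10-KD 1, the highest over alternatives that reached down to 0.00302). NRP1, the co-receptor for SEMA3A and named after its values were seen, lay at 30.6, 22.6 and 27.8 FPKM and at 24.4, 23.9 and 26.9 FPKM, and was not called (adjusted p = 0.532). Its groups overlapped through shCtrl 2 alone, without which it was lower in NAT10-KD cells by a log2 difference of −0.22 (adjusted p = 0.0335, with 0.0335 to 0.980 over all alternatives). PLXNA3 fell by 0.32 ± 0.09 (adjusted p = 0.0227), a call lost without shCtrl 1, shCtrl 3, NAT10-KD 1 or NAT10-KD 3 (adjusted p 0.0519 to 0.0908), and its adjusted p ran from 0.00793 to 0.152 over all alternatives.

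Of the slits, another family of repulsive ligands, and the robo family of receptors, 3 of 7 were tested and each was called. SLIT3 lay at 2.87, 2.47 and 2.72 FPKM in shCtrl cells and at 1.36, 1.09 and 1.14 FPKM in NAT10-KD cells, and fell by 1.11 ± 0.15 (adjusted p = 0.00134). The receptor ROBO3 fell by 0.92 ± 0.11 (adjusted p = 0.00104), while ROBO1 rose by 0.73 ± 0.17 (adjusted p = 0.0139, or 0.0545 without NAT10-KD 1, the highest over alternatives that reached down to 0.00282). SLIT3 and ROBO3 thus fell while ROBO1 rose.

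Of 29 intracellular transducers of these signals 23 were tested, with 6 higher, 3 lower and 14 not called. DOCK1, an exchange factor for RAC that acts below netrin receptors, lay at 12.1, 8.67 and 9.84 FPKM in shCtrl cells and at 23.1, 21.4 and 21.6 FPKM in NAT10-KD cells, and rose by 1.12 ± 0.12 (adjusted p = 0.000668). MICAL2, of the family of actin-oxidizing enzymes that plexins use, rose by 0.93 ± 0.12 (adjusted p = 0.00147). CDK5, a kinase that takes part in the response to SEMA3A, fell by 0.92 ± 0.16 (adjusted p = 0.00430). Without shCtrl 2 the log2 differences were 0.54 for ROBO1, 0.57 for SEMA3E, 0.64 for NRP2, 0.80 for MICAL2 and 1.01 for DOCK1. They were −0.76 for CDK5 and −0.53 for NTNG2, and each of these genes kept its call.

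**Figure D3:**
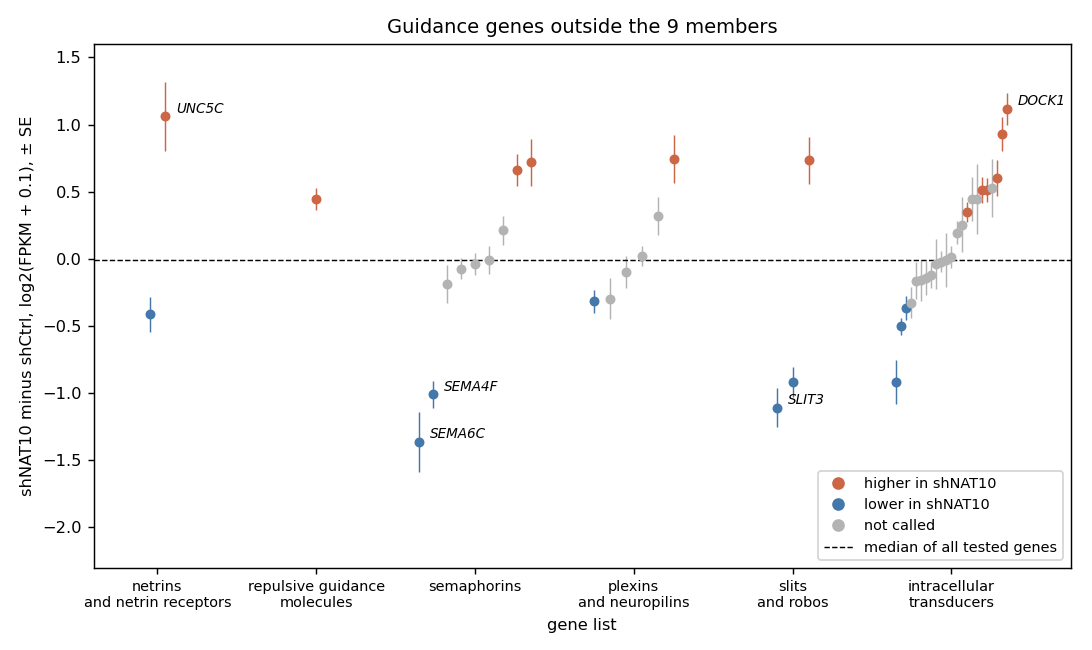
Log2 differences (NAT10-KD minus shCtrl, ± SE) of the 44 tested guidance genes outside the members by list, orange for higher, blue for lower and grey for not called at an adjusted p under 0.05; the dashed line is the median of all tested genes. The 5 genes past a log2 difference of 1 are named, and each list with more than 1 tested gene holds genes on both sides of the line.

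An acRIP peak was listed in shCtrl cells for 26 of these 44 genes, beside 49.6% of all tested genes, in NAT10-KD cells for 25, beside 47.7%, and in both for 19. By list, the shCtrl and NAT10-KD peaks fell on 17 and 18 of the 23 transducers, 4 and 2 of the 6 plexins and neuropilins, 3 and 2 of the 9 semaphorins and 1 and 2 of the 3 slit and robo genes. RGMB had a peak in both lists, and UNC5C and NTNG2 had 0 in either. No difference between these lists of genes was tested.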

How the data were processed

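RNA-seq covered 3 libraries per group. Reads were aligned and counted by the authors (HISAT2 2 and HTSeq 0.11.0 on GRCh38, and DESeq2 1.22.2, per the submitters' processing notes), and FPKM values per Ensembl gene were deposited. Multiplying by the length of the longest GENCODE v29 transcript and by the scale of the library gave whole reads, within 0.05, for 97.3% of values above 0. For acRIP-seq the authors deposited 1 peak list per group, with the fold enrichment (a ratio) and p-value of each peak as the caller gave them; the caller is not given in the sources used here. Columns of the authors' comparisons were not used.

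A gene was tested if 3 or more libraries reached 1 FPKM, which held for 12982. The fit used limma 3.58.1 (R 4.3.3) on log2(FPKM + 0.1) with the trend option, and p-values were adjusted over all tested genes by the method of Benjamini and Hochberg. Peaks were placed by midpoint on the longest coding transcript, and 1 shared base on the same strand counted as overlap. On simulated reads, 200 of 12259 genes, drawn from those with a mean above 20 reads, were changed by 2 on the log2 scale. At an adjusted p under 0.05 (limma) and a log2 difference past 1, 197 were recovered. At the same thresholds 60 unchanged genes were called, 1 of them with a mean of 20 reads or more. The length-dependent differences between libraries were not simulated. These counts therefore do not give the error of calls by adjusted p alone. The members and lists were chosen with earlier results of these data known. Named outside the members were every guidance gene past an adjusted p of 0.05 and a log2 difference of 1, up to 2 further called genes per list with the largest difference, and the 3 genes nearest to NTN1. The alternatives were a pseudocount of 1, no filter, a filter at 5 FPKM, TPM, quantile or median scaling, blocking on the replicate number, no trend, voom on recovered reads, each library left out, the top 50% of peaks by p-value or enrichment, and a reciprocal overlap of 50%. Python 3.11.15, NumPy 2.4.6, pandas 2.3.3 and matplotlib 3.10.9 were used.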

Additional observations from a re-analysis of the deposited data

How the results depend on the processing

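Of the 7 members that passed the filter, PLXNB2 was the one to change sign, to 0.0090 on the log2 scale with TPM. UNC5B and NEO1 were fitted without the filter only. NTN1 gave 1.11 with a pseudocount of 1, where NTN4 gave 1.31, 2.23 with TPM and 2.20 with voom on the recovered reads, and 1.96 to 2.06 with 1 library left out. At a minimum FPKM of 5 NTN1 was not tested. Members above 0 numbered 4 with any library left out. For the guidance genes outside the members, 12 higher and 9 lower became 7 and 5 at a minimum FPKM of 5, where fewer genes were tested. With 1 library left out they became 9 to 15 and 6 to 12. Among all genes, 2699 and 2751 of 12982 became 2065 and 2020 of 8474 at a minimum FPKM of 5. With 1 library left out the counts among all genes were 1774 to 3303 and 1765 to 3318. Guidance genes past a log2 difference of 1 (2 higher, 3 lower) became 1 and 0 with a pseudocount of 1 and 1 and 1 at a minimum FPKM of 5. With 1 library left out they became 1 to 3 and 2 to 3. Among all genes, 378 and 463 became 198 and 231 with a pseudocount of 1 and 221 and 227 at a minimum FPKM of 5. With 1 library left out the counts among all genes were 346 to 485 and 441 to 517. Replicate numbers were shared between groups, but deviations of same-numbered libraries correlated at −0.04, 0.06 and 0.11, and not every library correlated best with its own number. The fit with the replicate number as a block gave 13 higher and 9 lower guidance genes, 2524 and 2603 among all genes, and an adjusted p of 0.0542 for NTNG2. The 17 shCtrl peaks on members became 8 in the 50% of the list with the lowest p-values and 7 in that with the highest enrichment, and the 15 NAT10-KD peaks became 5 and 4. The 4 shared peaks of each list became 2 at a reciprocal overlap of 50%.

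Depth limits UNC5B and NTN1 most, with 15 to 17 reads for UNC5B in NAT10-KD and 51 to 66 for NTN1 in shCtrl libraries. With 3 libraries a group, an exact permutation test of 1 gene cannot go below 0.10.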
